A study of Homo sapiens with 8 samples.

Results

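The osteoblast lineage genes described here are RUNX2, SP7, DLX5, MSX2, ALPL, SPARC, IBSP, SPP1, PHEX and PTH1R, which mark the path from a committed mesenchymal cell to a mineralising osteoblast. A probe set belonged to the group if the array annotation gave it exactly 1 gene and that gene was in the list, which gave 22 probe sets of 54613 and 10 genes of 19775. All 8 samples are of Saos-2, a human osteosarcoma cell line that the labels give as p53 null. Untreated cells (3 arrays, replicates 1, 2 and 3) were set against cells given a compound labelled Prima for 6 h (3 arrays, replicates 1, 2 and 3) and for 12 h (2 arrays, replicates 1 and 3). An array of replicate 2 at 12 h was not used. The labels used here name no dose and no vehicle, and they do not say whether replicates came from separate cultures, so any p-value reflects variation among these arrays, part or all of which may be technical. Values are MAS5 signals, a summary of the probes of a probe set on a linear scale in which every array has the same trimmed mean. The signal of a probe set depends on its own probes, so levels are compared between arrays and not between genes, and a signal is called strong or dim by its place in the range of an array.

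Osteoblasts arise from mesenchymal progenitors in which RUNX2, a runt-domain transcription factor that binds DNA with its partner CBFB, sets the fate, and SP7 (osterix), a zinc finger factor, acts downstream of it. DLX5 and MSX2 are homeodomain factors that act around the same step. The mature cell secretes a collagen matrix with the glycoproteins SPARC (osteonectin), IBSP (bone sialoprotein) and SPP1 (osteopontin), mineralises it with the help of the phosphatase ALPL, and carries the endopeptidase PHEX and the parathyroid hormone receptor PTH1R on its surface.

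Several arrays stood apart from the rest. Median signal was 47.5 on 6 h replicate 2 and 50.9 on untreated replicate 2, against 14.2 to 24.95 on the other arrays, so dim probe sets read higher on both replicate 2 arrays. The 3′ to 5′ signal ratio of the ACTB control probes was highest on 12 h replicate 1 (2.29) and 6 h replicate 1 (1.73), against 1.12 to 1.38 on the remaining arrays. For some genes of bone, 6 h replicate 1 lay far from every other array. Of the 92 members and related bone genes with a probe set, it was the highest array for 22, the lowest for 18 and inside the range of the others for 52. Over all 12063 tested genes it was the highest array for 19.27% and the lowest for 16.01%. Untreated replicate 2 was the highest for 19.03% of them and the lowest for 25.06%, so such counts were not particular to 6 h replicate 1. Some of the 92, SOST among them, did not pass the filter on low signals that the 12063 genes passed, so the sets are unlike. Whether bone genes differed from all genes in these counts was not tested. SOST, which encodes the osteocyte WNT inhibitor sclerostin, read 973 on 6 h replicate 1 and 0.525 to 24.6 elsewhere. DKK1, another secreted WNT inhibitor, read 1762 there and 126 to 240 elsewhere. POSTN (periostin) and OMD (osteomodulin), both matrix proteins, read 9.86 and 6.64 there, against 73.0 to 153 and 42.5 to 122 elsewhere. SOST, DKK1 and POSTN, and KRT18, HAPLN1, SOX9 and COL2A1 among the markers of other cells, were singled out after their values were seen. Whether this array holds the sample its label names was not tested, and all 6 h values take the label as given. For most members, differences that this array moves are also given without it below, as are the counts of the related lists.

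The regulatory sequence next to 3 of the genes is shown because SPP1 and IBSP are textbook targets of RUNX2, and RUNX2 is known to act on its own upstream region. Each line gives the 250 bases upstream of a RefSeq start on GRCh38.p14, plus strand, and capitals mark the RUNX core TGTGGT or its reverse complement ACCACA. The windows are chr6:45328080-45328329, chr4:87975464-87975713 and chr4:87799304-87799553.
RUNX2: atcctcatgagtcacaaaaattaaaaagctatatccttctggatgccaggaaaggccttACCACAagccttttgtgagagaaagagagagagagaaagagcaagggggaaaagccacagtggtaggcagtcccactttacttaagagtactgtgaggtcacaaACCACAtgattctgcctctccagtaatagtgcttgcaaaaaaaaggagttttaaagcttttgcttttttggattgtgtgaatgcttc
SPP1: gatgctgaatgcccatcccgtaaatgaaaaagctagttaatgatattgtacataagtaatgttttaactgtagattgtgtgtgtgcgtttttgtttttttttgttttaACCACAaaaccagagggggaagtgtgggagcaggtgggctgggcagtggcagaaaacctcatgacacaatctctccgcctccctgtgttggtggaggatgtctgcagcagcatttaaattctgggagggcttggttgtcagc
IBSP: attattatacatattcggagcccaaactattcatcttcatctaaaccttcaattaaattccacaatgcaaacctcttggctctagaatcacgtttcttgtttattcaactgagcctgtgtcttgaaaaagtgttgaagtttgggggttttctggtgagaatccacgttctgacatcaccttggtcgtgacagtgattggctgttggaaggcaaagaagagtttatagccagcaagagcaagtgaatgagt
The printed RUNX2 window, at the upstream of the 2 RefSeq starts of the gene, held 2 cores, 191 and 87 bases before the start, the SPP1 window 1, 142 bases before the start, and these letters did not occur in the IBSP window. The other RUNX2 window (chr6:45422025-45422274) and all windows of ALPL, SPARC, MSX2 and PTH1R held 0. Over the members 2 of 11 windows held the core, and over 35116 windows of this length 10.98% did, on either strand. RefSeq windows were found for 7 of the 10 genes, and SP7, DLX5 and PHEX were not in the table. The homeodomain core TAATTA, which reads the same on both strands and overlapped no RUNX core, occurred once in an MSX2 window and once in a PTH1R window, and in 4.35% of all windows. A match describes the letters and not a bound site, and no binding was measured.

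The transcription factors RUNX2 and DLX5 were well above the dim range of the arrays in untreated cells. RUNX2 read 2066, 1620 and 2067 on the untreated arrays, 2350, 1411 and 1665 after 6 h, and 1971 and 1859 after 12 h. In bulk RNA such as this, fewer cells of a type and less RNA per cell cannot be told apart. The RUNX2 groups overlapped, and the replicate 2 array was the lowest of its group in both groups that have one. On the untreated arrays the RUNX2 signal lay above that of 98.5% to 98.7% of all probe sets, a place that also reflects how well its probes bind. DLX5 was the steadiest member, at 389, 403 and 436 on the untreated arrays, 373, 310 and 392 after 6 h, and 356 and 439 after 12 h. Its highest signal was 1.42 times its lowest over the 8 arrays, and all groups overlapped.

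SP7 varied little without treatment and more with it. It read 93.3, 96.7 and 105 on the untreated arrays (98.3 ± 6.00, SD, n = 3). After 6 h it read 272, 88.8 and 96.0, with replicate 1 far above the others, and after 12 h 176 and 123, both above every untreated array. The 2 highest SP7 signals were therefore on the 2 arrays with the highest ACTB 3′ to 5′ ratios, and the part of RNA quality in this was not tested. MSX2 read 145, 269 and 95.8 on the untreated arrays, 426, 199 and 113 after 6 h, and 180 and 111 after 12 h, again with 6 h replicate 1 on top and all groups overlapping. Its brightest probe set is of the kind (suffix x) whose probes can also bind other transcripts, so the MSX2 level is uncertain.

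By its brighter probe set, SPARC was the matrix gene with a strong signal, above 98.6% to 98.8% of probe sets on the untreated arrays. Its dimmer probe set, 212667_at, averaged 112 there and lay above 68.1% to 80.6%. On the same arrays SPP1 lay above 40.9% to 56.9%. IBSP lay above 49.9% to 74.2%, which overlaps the place of SP7 (71.4% to 78.0%). SPARC read 2044, 1815 and 2192 on the untreated arrays, 1319, 1583 and 2556 after 6 h, and 2404 and 2362 after 12 h. The 6 h arrays spread on both sides of the untreated ones, and both 12 h arrays lay above the untreated ones and below 6 h replicate 3. ALPL read 140, 286 and 131 on the untreated arrays, 243, 254 and 139 after 6 h, and 133 and 130.5 after 12 h. Without the replicate 2 arrays every ALPL signal but that of 6 h replicate 1 lay between 130.5 and 140. IBSP read 77.4, 50.7 and 57.3 on the untreated arrays, 76.9, 34.0 and 43.3 after 6 h, and 60.3 and 32.1 after 12 h. SPP1 read 18.9, 36.2 and 22.3 on the untreated arrays, 55.7, 94.2 and 14.5 after 6 h, and 30.1 and 20.3 after 12 h, so the 6 h arrays held both its lowest and its highest signal.

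The surface proteins were dim, and PTH1R had the lowest signals after 12 h. PHEX read 14.6, 57.6 and 23.4 on the untreated arrays, 7.003, 42.9 and 16.7 after 6 h, and 15.8 and 13.1 after 12 h, with the replicate 2 arrays highest. PTH1R read 26.3, 14.7 and 37.9 on the untreated arrays, 46.5, 47.1 and 21.5 after 6 h, and 5.41 and 10.95 after 12 h. Both 12 h arrays were below all others. No member's brightest probe set was at or under the floor of 2.39 on any array.

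**Figure D1:**
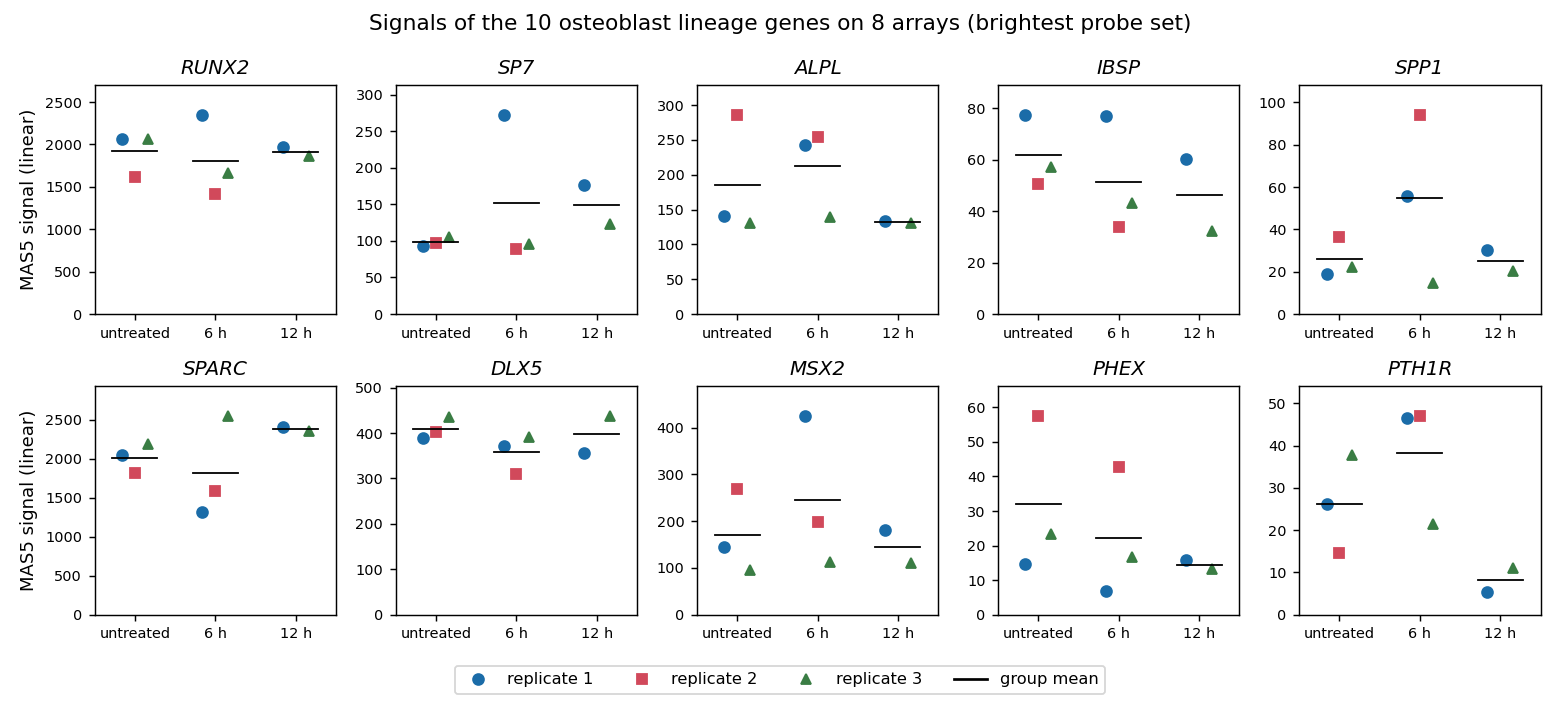
MAS5 signal (linear axis from 0) of the brightest probe set of each of the 10 genes on the 3 untreated, 3 6 h and 2 12 h arrays. Symbols give the replicate number and bars the group means. SP7 and MSX2 stand out on 6 h replicate 1 (272 and 426), and both PTH1R signals at 12 h (5.41 and 10.95) lie under every other.

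Probe sets of the same gene gave different pictures for several members. RUNX2 had 6 probe sets, of which 4 passed the filter on low signals (a mean log2 signal over 4.22, the median of all probe sets). Beside the brightest, 236858_s_at read 389, 251 and 477 and 236859_at 337, 222 and 483 on the untreated arrays. Their log2 differences at 12 h against untreated were 0.18 ± 0.34 and 0.16 ± 0.34 (SE), against 0.01 ± 0.27 for the brightest. With the replicate number as a block all 3 were below 0, at -0.07, -0.03 and -0.13, and untreated replicate 2, which has no 12 h partner here, was the lowest untreated array for each. The fourth, 216994_s_at, averaged 29.9 ± 17.5 in untreated cells (SD, n = 3). As a description over the 8 arrays, 236858_s_at and 236859_at had a Pearson r of 0.78 (Spearman 0.62), which was 0.21 without the replicate 2 arrays (6 arrays). The brightest, 232231_at, had an r of 0.58 with 236858_s_at, 0.38 with 236859_at and -0.54 with 216994_s_at (Spearman 0.60, 0.55 and -0.50). Without the replicate 2 arrays its r was -0.12, -0.30 and -0.43 in the same order.

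Both ALPL probe sets had their highest untreated signal on replicate 2, at 286 for the brighter and 225 for the dimmer, and both were lower on every 12 h array than on every 6 h array, as were 6.38% of 27303 probe sets tested. Over the 8 arrays their r was 0.82 (Spearman 0.67), and it was 0.80 without the replicate 2 arrays. For IBSP, the probe sets had opposite signs after 6 h, with a log2 difference of -0.33 ± 0.49 (SE) for the brighter and 0.70 ± 0.78 for the dimmer. The MSX2 probe sets also differed in sign after 6 h, at 0.45 ± 0.49 for 210319_x_at and -0.12 ± 0.41 for 205555_s_at. For SPARC the dimmer probe set gave 0.00037 ± 0.38 after 12 h, where the brighter gave 0.24 ± 0.29. The probe sets that did not pass the filter were 2 of RUNX2 and 1 each of SPP1, MSX2 and PHEX, with mean signals of 4.75 to 16.7 in untreated cells. In all 17 of 22 passed, among them the brightest of each of the 10 genes.

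**Figure D2:**
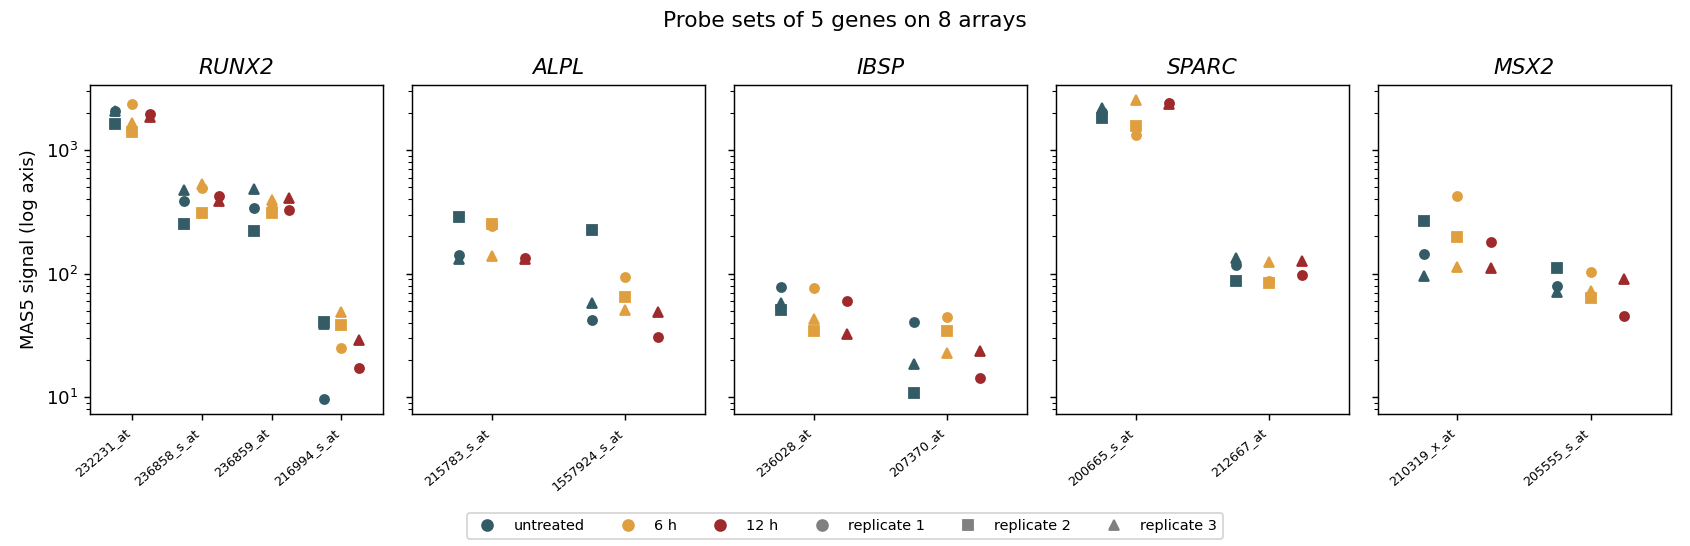
MAS5 signal (log axis) of the probe sets of RUNX2, ALPL, IBSP, SPARC and MSX2 that passed the filter, on the 8 arrays. Colours give the group and symbols the replicate number. The ALPL probe sets share a high untreated replicate 2 array, while those of IBSP and MSX2 order the arrays differently.

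The first comparison, 6 h against untreated, asked for an early response. None of the 10 genes passed the test, and none had 6 h arrays that all lay above or all below the untreated ones. Of 12063 genes tested with limma, 0 passed an adjusted p of 0.05 (0%), 79 had an unadjusted p under 0.05 (0.655%), and 2.03% lay wholly higher and 1.51% wholly lower on the 6 h arrays. Of the members 5 were above 0 and 5 below, with a median log2 difference of 0.06 against 0.02 over all genes. The smallest adjusted p among the members was 0.9999.

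The widest early differences belonged to dim genes. SPP1 averaged 54.8 ± 39.8 after 6 h and 25.8 ± 9.15 in untreated cells (SD, n = 3 each), a log2 difference of 0.77 ± 0.77 (SE, 95% interval -0.88 to 2.43). It was 0.20 without 6 h replicate 2 and 1.54 without 6 h replicate 3. PTH1R stood at 0.56 ± 0.875, or 0.38 without 6 h replicate 1. PHEX stood at -0.66 ± 1.02, but at -0.01 ± 1.03 without 6 h replicate 1 and at -1.32 ± 1.08 without 6 h replicate 2. SP7 averaged 152 ± 104 after 6 h and 98.3 ± 6.00 in untreated cells (SD, n = 3 each), a difference of 0.43 ± 0.41 that became -0.09 ± 0.32 without 6 h replicate 1. MSX2 at 0.45 ± 0.48 likewise became -0.05 ± 0.44 without that array, and SPARC at -0.20 ± 0.25 became 0.00053 ± 0.27. For RUNX2 the difference was -0.11 ± 0.24, with an interval from 0.649-fold to 1.33-fold, or -0.31 ± 0.25 without 6 h replicate 1 and 0.05 ± 0.26 without 6 h replicate 2. For DLX5 it was -0.20 ± 0.24, from 0.612-fold to 1.24-fold. ALPL stood at 0.23 ± 0.355, or 0.11 ± 0.39 without 6 h replicate 1. IBSP stood at -0.33 ± 0.48, with -0.67 ± 0.52 without 6 h replicate 1 and -0.08 ± 0.49 without 6 h replicate 2. Without 6 h replicate 1 the median of the members was -0.03, with 4 above 0.

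The second comparison, 12 h against untreated, gave 3 members whose arrays did not overlap, none of which passed the test. SP7 and SPARC were higher on both 12 h arrays than on any untreated array, as were 9.6% of all genes, and PTH1R was lower, as were 4.89%. With limma 0 genes passed (0%) and 74 had an unadjusted p under 0.05 (0.613%), none of them a member. Of the members 3 were above 0 and 7 below, with a median of -0.09 against 0.08 over all genes. Centring each array on its median adds the same amount to the 12 h difference of every gene. It put the median of all genes at 0.66 and that of the members at 0.49, with 8 of 10 above 0, so the signs of small 12 h differences depend on the scaling.

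PTH1R had the largest difference of the 10 at 12 h. It averaged 8.18 ± 3.92 after 12 h (SD, n = 2) and 26.3 ± 11.6 in untreated cells (SD, n = 3), a log2 difference of -1.67 ± 0.98 (SE, interval -3.78 to 0.45). Within same-numbered arrays it was -2.28 for replicate 1 and -1.79 for replicate 3. With the replicate number as a block it was -1.755 ± 0.745, with an unadjusted p of 0.0447 and an adjusted p of 0.9998 in limma. These signals lie where the replicate 2 arrays read higher than the others, and the untreated replicate 2 array had the lowest untreated PTH1R signal (14.7), and the difference without both replicate 2 arrays was -2.03 ± 0.78.

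SP7 averaged 150 ± 37.2 after 12 h (SD, n = 2) and 98.3 ± 6.00 in untreated cells (SD, n = 3), a log2 difference of 0.59 ± 0.45 (SE), which was 0.33 ± 0.60 without 12 h replicate 1. SPARC averaged 2383 ± 29.6 after 12 h (SD, n = 2) and 2017 ± 190 in untreated cells (SD, n = 3), a difference of 0.24 ± 0.285. RUNX2 differed by 0.01 ± 0.27 (0.674-fold to 1.499-fold) and DLX5 by -0.05 ± 0.26 (0.651-fold to 1.44-fold). ALPL stood at -0.40 ± 0.40, but at -0.07 and -0.01 within same-numbered arrays and at -0.04 without untreated replicate 2. IBSP stood at -0.47 ± 0.54, with -0.36 and -0.83 in the same-numbered pairs, but at -0.01 ± 0.70 without 12 h replicate 3 and -0.92 ± 0.72 without 12 h replicate 1. MSX2 at -0.13 ± 0.53, PHEX at -0.91 ± 1.14 and SPP1 at -0.01 ± 0.86 spread widely. For the brightest probe sets in the main fit, a doubling or halving of RUNX2, DLX5 or SPARC lay outside the 12 h intervals. For the other 7 genes at least 1 of these lay inside. The dim RUNX2 probe set 216994_s_at had an interval of -1.96 to 1.63, which holds both. After median centring DLX5 stood at 0.53 ± 1.01, so its limit also depends on the scaling.

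**Figure D3:**
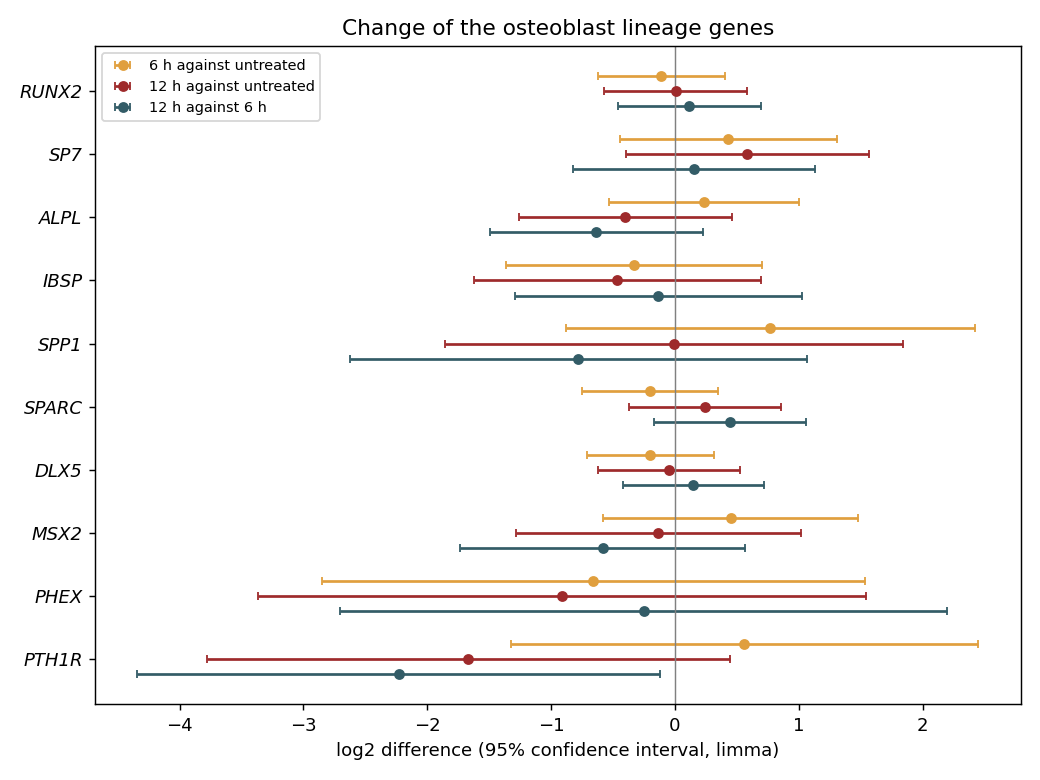
Log2 differences of the 10 genes with 95% confidence intervals from limma for 6 h against untreated, 12 h against untreated and 12 h against 6 h. The intervals of RUNX2 and DLX5 are the narrowest and those of PHEX, PTH1R and SPP1 the widest. Of the 30 intervals, the PTH1R interval at 12 h against 6 h (-4.34 to -0.12) is the one that does not reach 0. PTH1R passed the filter only with its 6 h arrays counted.

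The third comparison set 12 h against 6 h. ALPL and PTH1R were lower on both 12 h arrays than on any 6 h array, which held for 4.5% of all genes, and no member was wholly higher (7.1% of all genes). PTH1R averaged 8.18 ± 3.92 after 12 h (SD, n = 2) and 38.4 ± 14.6 after 6 h (SD, n = 3), a log2 difference of -2.23 ± 0.98 (SE). Its unadjusted p in limma was 0.0401, as 88 of 12063 genes (0.73%) had one under 0.05, and its adjusted p was 0.99998. PTH1R passed the filter only with its 6 h arrays counted, where it was highest, so this p is not free of the filter. With no filter its unadjusted p in limma was 0.0407, and 181 of 19775 genes had one under 0.05. Without 12 h replicate 1 the difference was -1.72 ± 1.17, and without 6 h replicate 1 -2.05 ± 1.26. The size depends on the scale for so dim a gene, at -1.47 ± 0.98 after quantile normalization and -0.79 ± 0.45 with a pseudocount of 32. ALPL averaged 132 ± 1.92 after 12 h (SD, n = 2) and 212 ± 63.6 after 6 h (SD, n = 3), a difference of -0.63 ± 0.40, with -0.87 in the replicate 1 pair and -0.09 in the replicate 3 pair. SPARC stood at 0.45 ± 0.285 and MSX2 at -0.58 ± 0.53, and without 6 h replicate 1 they stood at 0.24 ± 0.29 and -0.08 ± 0.48. RUNX2 and DLX5 differed by 0.12 ± 0.27 and 0.15 ± 0.26. With limma 0 genes passed (0%). Both comparisons with untreated cells share the untreated arrays, and this comparison shares the treated ones, so the sets of values are not independent.

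Other genes of the osteoblast programme were taken from 4 lists of related genes, and 0 members of any list passed in any comparison. Among the lineage regulators, 25 of 30 genes were tested, and at 12 h 18 were above 0 and 7 below, with a median log2 difference of 0.18 against 0.08 over all genes. CBFB, the DNA-binding partner of RUNX2, read 1341, 1135 and 1038 after 6 h and 1028, 738 and 963 in untreated cells. Every 6 h array lay above every untreated one, as for 2.03% of all genes, with a difference of 0.37 ± 0.23 (SE). The highest was 6 h replicate 1. At 12 h CBFB read 1132 and 1076, both again above every untreated array, as for 9.6% of all genes. The difference was 0.29 ± 0.25, although the mean over its 2 probe sets gave -0.30. DLX3, a homeodomain factor related to DLX5, had the highest difference of this list at 12 h, with 83.6 and 30.2 after 12 h against 38.1, 15.03 and 22.4 in untreated cells (1.10 ± 0.80, or 0.37 without 12 h replicate 1), and 115 on 6 h replicate 1. ID1, an inhibitor of basic helix-loop-helix factors, had the lowest, with 769 and 1733 against 1428, 1546 and 2246 (-0.56 ± 0.39).

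Of 16 bone matrix genes tested out of 20, 9 were above 0 and 7 below at 12 h (median 0.05). COL1A1, the main collagen chain of bone, read 3702 and 3699 after 12 h against 3118, 2794 and 3704 in untreated cells, a log2 difference of 0.22 ± 0.27. OMD, a bone keratan sulfate proteoglycan, had the lowest difference of the list (-0.77 ± 0.90), and THBS2, a matricellular protein, the highest (0.60 ± 0.81). OMD read 42.5 and 65.8 after 12 h against 71.1, 122 and 84.1, wholly lower, as were 4.89% of all genes. Of 8 mineralisation and phosphate genes tested out of 16, 3 were above 0 and 5 below (median -0.02). SLC20A1, a sodium-phosphate cotransporter, read 588 and 522 after 12 h against 443, 346 and 428 in untreated cells (0.46 ± 0.30). It was wholly higher, as were 9.6% of all genes. FAM20C, the kinase of secreted matrix proteins, read 33.7 and 2.93 against 34.65, 83.6 and 20.5 (-1.97 ± 1.12). The FAM20C difference was -0.21 without 12 h replicate 3, the array near the floor, and -3.74 without 12 h replicate 1.

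Of 15 hormone response and osteoclast coupling genes tested out of 22, 10 were above 0 and 5 below at 12 h (median 0.14). TNFRSF11B, which encodes the RANKL decoy receptor osteoprotegerin, read 70.3, 80.8 and 98.0 after 6 h and 183, 107 and 122 in untreated cells. All 6 h arrays lay under all untreated ones, as for 1.51% of all genes, and the log2 difference was -0.70 ± 0.33. The lowest was 6 h replicate 1. At 12 h TNFRSF11B read 126 and 84.1 (-0.38 ± 0.37). VDR, the vitamin D receptor, differed by 0.33 ± 0.40 at 12 h. The ends of this list were GNAI2, an inhibitory G protein subunit (0.68 ± 0.41), and NR4A2, a nuclear receptor induced by parathyroid hormone in osteoblasts (-1.68 ± 1.03). At 6 h against untreated, 17 regulators were above 0 and 8 below (median 0.12), 8 matrix genes above and 8 below (-0.03), 3 mineralisation genes above and 5 below (-0.06), and 12 hormone and coupling genes above and 3 below (0.34), against a median of 0.02 over all genes. At 12 h against 6 h the counts above and below 0 were 17 and 8, 12 and 4, 6 and 2, and 6 and 9 in the same order of lists. Without 6 h replicate 1, a setting applied to these lists after the data were seen, 7 hormone and coupling genes were above 0 and 8 below at 6 h against untreated (median -0.02). In this setting 16 regulators were above 0 and 9 below (0.03), 7 matrix genes above and 9 below (-0.02), and 2 mineralisation genes above and 6 below (-0.19). At 12 h against 6 h without that array the counts were 18 and 7 for regulators, 11 and 5 for matrix genes, 7 and 1 for mineralisation genes and 8 and 7 for hormone and coupling genes. BGLAP, which encodes osteocalcin, had no probe set annotated to it alone and was not analysed here.

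**Figure D4:**
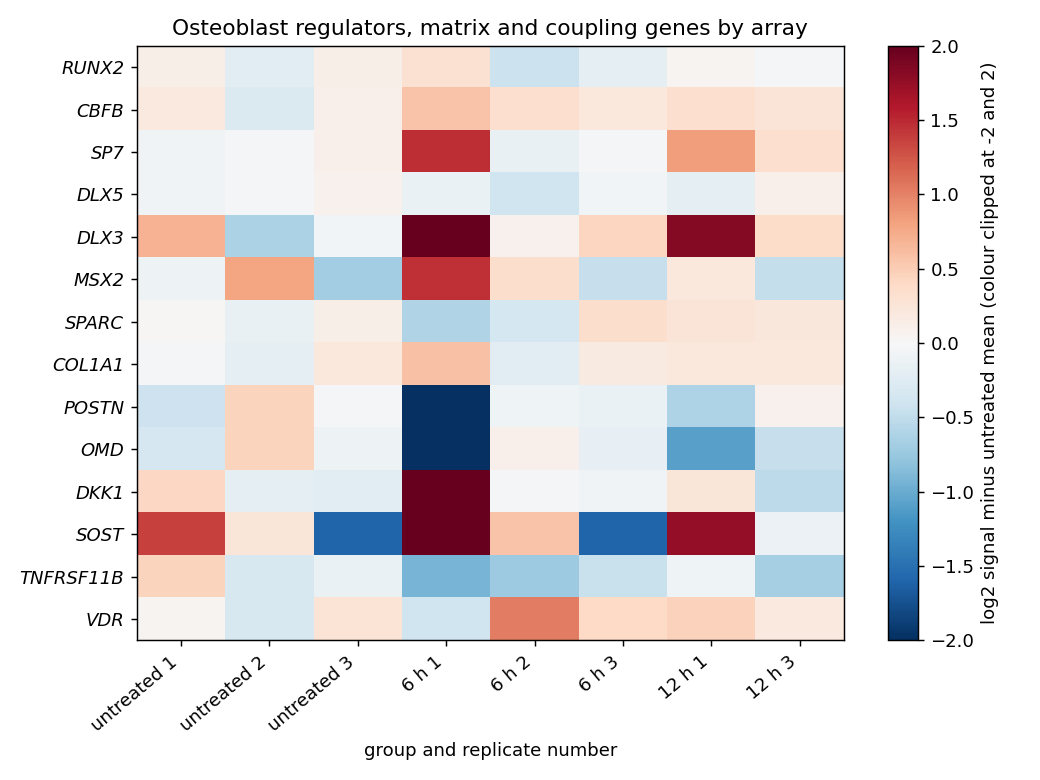
Log2 signal minus the untreated mean (colour, clipped at -2 and 2) of 14 osteoblast regulators, matrix and coupling genes on the 8 arrays. The 6 h replicate 1 column departs from the others for SP7, MSX2, POSTN, OMD, DKK1 and SOST, while TNFRSF11B is lower on all 3 6 h arrays. DLX3 is high on both 6 h replicate 1 and 12 h replicate 1 (signals of 115 and 83.6).

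Markers of other cell types were looked at in the same arrays. Of 10 chondrocyte markers 7 passed the filter, and the signals of all 10 summed to 1451 to 2920 in untreated cells, 1672 to 2766 after 6 h and 2131 to 2690 after 12 h. HAPLN1, the cartilage link protein, read 859 to 2546, and SOX9, the chondrocyte transcription factor, read 141 to 345. The cartilage collagen COL2A1 did not pass, at 0.295 to 79.3. Of 6 epithelial markers 3 passed, and the sums over all 6 were 617 to 978 in untreated cells, 692 to 2307 after 6 h and 942 to 981.5 after 12 h, with KRT18 at 2064 on 6 h replicate 1 and 342 to 733 elsewhere. Of the 7 chondrocyte genes 5 were below 0 at 12 h against untreated, with a median log2 difference of -0.66 against 0.08 over all genes, and 0 passed the test. At 12 h the medians of the other marker lists were -0.11 for adipocyte (3 genes), 0.12 for muscle (2) and 0.43 for epithelial markers (3). They were -1.16 for haematopoietic (2) and -0.63 for endothelial markers (1). The 12 h group has no replicate 2 array. Of the untreated arrays, replicate 2 was the highest for ACAN, COL10A1, MATN3, SOX5, SOX6, PTPRC, CTSK and PECAM1, but not for SOX9 and HAPLN1. PECAM1 read 130 there, against 13.7 to 40.5 on the untreated and 12 h arrays outside replicate 2. PTPRC read 14.9 and 0.473 after 12 h, below 36.2 and 9.54 on the same-numbered untreated arrays. The part of untreated replicate 2 in these medians was not tested. Of 8 adipocyte markers 3 passed the filter (sums over all 8 of 131 to 348 in untreated cells, 135 to 262 after 6 h and 158 to 178 after 12 h), and of 8 muscle markers 2 (238 to 511, 317 to 500.3 and 319 to 509). Of 8 haematopoietic markers 5 had a probe set of their own and 2 passed (73.6 to 199, 63.3 to 368 and 60.2 to 98.4), and of 6 endothelial markers 1 (60.3 to 235, 40.8 to 314 and 75.8 to 126). COMP, COL9A1, PLIN1 and CDH5 were at or under the floor on untreated replicates 1 and 3. The part of these genes in the results above was not tested.

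The genes whose profile over the 8 arrays was most like that of RUNX2 were SERINC5 (Pearson r 0.99, Spearman 0.93), CCN4 (0.98 and 1.00) and RFX7 (0.98 and 0.86). Without both replicate 2 arrays, which leaves 6, r was 0.97, 0.99 and 0.94. For IBSP they were SEPTIN6, LOC101927166 and TMEM69, with r of 0.95, 0.94 and 0.94 (0.95, 0.94 and 0.94 without the replicate 2 arrays). These arrays share scaling and replicate number, and 107 genes had an r above 0.9 with RUNX2 and 16 with IBSP among 12062 compared. Among the members over 8 arrays, ALPL and MSX2 had the most alike profiles (r = 0.81, Spearman 0.83) and SPARC and MSX2 the most opposite (-0.84, Spearman -0.69). Over the 6 arrays outside replicate 2, SP7 and SPP1 were the most alike (r = 0.96, against 0.25 over 8) and ALPL and SPARC the most opposite (-0.95, against -0.83 over 8). In each of these 4 pairs 6 h replicate 1 was at an end of the range of both genes over the 6 arrays.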

How the data were processed

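Total RNA of 8 Saos-2 samples was turned into biotin-labelled cRNA and hybridised to Affymetrix 3′ arrays, 1 per sample (per the labels). The authors deposited MAS5 intensity values, linear and 1 per probe set; the tool comes from the submitters' notes, and its settings are not given in the sources used here. The 62 control probe sets of 54675 were left out. The platform annotation gave 1 gene for 41091 probe sets, several for 1801 and none for 11721. A gene was represented by its brightest probe set.

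Signals under the 10th percentile (2.39) were raised to it before log2, which understates changes of dim genes. Genes with a mean log2 signal over 4.22, in number 12063, entered the tests. With probe sets as units, 27303 were tested. Tests used limma 3.58.1 in R 4.3.3 (lmFit, eBayes with a variance trend), all 3 groups in 1 fit, two-sided, with Benjamini-Hochberg adjustment over all features. The code was tested on simulated data. The number of arrays limits the precision.

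The members and lists were chosen with earlier results of these data known. Named genes were all members, the highest and lowest tested gene of each related list at 12 h, 6 fixed genes (1 of them is not reported here), and the 3 genes most like RUNX2 and IBSP by Pearson r. Promoter sequences and loci are RefSeq's on GRCh38.p14. Deviations of same-numbered arrays from their group means correlated at 0.108 to 0.637 across genes in all 7 pairs, against -0.576 to 0.333 in 14 pairs of unlike number. Deviations sum to 0 within a group, so these ranges are not independent, and with 2 arrays at 12 h they mirror each other. The 12 h replicate 1 array correlated more with untreated replicate 2 (0.333) and 6 h replicate 2 (0.295) than with untreated replicate 1 (0.108) and 6 h replicate 1 (0.159). The main fits did not use the replicate number, which entered only the same-numbered differences and the block. All fits were run again with the number as a block, and under other scalings, floors, filters, probe set rules and weights, and without each array.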

Additional observations from a re-analysis of the deposited data

How the results depend on the processing

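No gene passed an adjusted p of 0.05 in any comparison under any of the alternatives run, with limma throughout. Genes with an unadjusted p under 0.05 numbered 493, 262 and 297 with the replicate number as a block, against 79, 74 and 88 without it, for 6 h against untreated, 12 h against untreated and 12 h against 6 h. Array weights gave 360, 634 and 106 such genes, with a smallest adjusted p of 0.296 at 12 h against untreated, and array weights with the block 371, 1087 and 314, with 0.203. Of the log2 differences of named genes under each alternative, 789 kept their sign and 65 reversed, all of them from values that had not passed the test, and the causes were not tested. A change of the filter or variance trend, or leaving out an array outside the comparison, returns the same difference. Many of the 789 therefore could not reverse, and the count does not measure stability. With 2 arrays at 12 h, dim signals for SPP1, PHEX and PTH1R and a wide interval for IBSP, small differences could not be resolved.

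At 12 h against untreated, the replicate block gave -0.13 for RUNX2, 0.041 for MSX2 and 0.42 for SPP1. Quantile normalization gave -0.14 for RUNX2, 0.069 for IBSP and 0.54 for SPP1. Median centring, which raised all genes, gave 0.18 for ALPL, 0.53 for DLX5, 0.11 for IBSP, 0.45 for MSX2, 0.57 for SPP1, 0.018 for ID1 and 0.20 for TNFRSF11B. Array weights gave -0.090 for RUNX2, 0.033 for MSX2 and 0.28 for SPP1, and with the block -0.13, 0.17 and 0.18. Without both replicate 2 arrays the values were -0.11 for RUNX2, 0.26 for MSX2, 0.27 for SPP1 and -0.025 for THBS2. PTH1R stayed below 0 at -0.72 after quantile normalization and -0.52 with a pseudocount of 32. The mean of probe sets gave -0.19 for RUNX2, -0.30 for CBFB and 0.082 for TNFRSF11B.

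At 12 h against 6 h, the block gave 0.35 for PHEX and -0.024 for RUNX2. Quantile normalization gave 0.37 for IBSP, 0.29 for PHEX and -0.040 for RUNX2, and median centring 0.45 for IBSP, 0.0012 for MSX2 and 0.33 for PHEX. Array weights with the block gave 0.085 for PHEX and 0.0998 for SPP1. Without both replicate 2 arrays the values were 0.41 for PHEX, -0.047 for RUNX2 and -0.13 for SP7, and the mean of probe sets gave -0.26 for RUNX2. At 6 h against untreated, the mean of probe sets gave -0.022 for ALPL, 0.19 for IBSP and 0.068 for RUNX2, and array weights with the block gave -0.16 for PTH1R and 0.023 for SPARC.

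Leaving out each array in turn gave ranges that crossed 0 for several genes. At 6 h they were -0.051 to 0.91 for MSX2, -0.31 to 0.054 for RUNX2, -0.089 to 0.72 for SP7 and -0.48 to 0.00053 for SPARC. At 12 h they were -0.20 to 0.10 for DLX5, -0.48 to 0.26 for MSX2, -0.11 to 0.066 for RUNX2, -0.29 to 0.28 for SPP1, -1.15 to 0.023 for ID1 and -0.025 to 0.92 for THBS2. For 12 h against 6 h they were -0.59 to 0.32 for IBSP, -0.90 to 0.41 for PHEX, -0.047 to 0.32 for RUNX2 and -0.13 to 0.68 for SP7. Among the members, ranges at 12 h against untreated that did not cross 0 were -0.92 to -0.01 for IBSP, -0.60 to -0.04 for ALPL and -1.35 to -0.37 for PHEX. The others were -2.18 to -1.16 for PTH1R, 0.33 to 0.84 for SP7 and 0.17 to 0.31 for SPARC. The filter at the 75th percentile kept 6 members, the mean of probe sets 8 and a pseudocount of 32 kept 9.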

Other observations

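Other genes of the lists also lay far from the rest on 6 h replicate 1. RGS2, a regulator of G protein signalling, read 328 there and 18.0 to 139 on the other arrays, and GHR, the growth hormone receptor, 514 against 155 to 211. SMPD3, a sphingomyelinase of mineralising cells, read 134 against 6.83 to 53.2, and the muscle creatine kinase CKM 105 against 3.22 to 25.6. On the low side, the cardiac actin ACTC1 read 26.5 against 140 to 278. Of 92 list genes that entered the tests, 4 (DKK1, GHR, RGS2 and KRT18) were over 2-fold above every other array on 6 h replicate 1, as were 0.870% of all 12063 tested genes. That share of all tested genes was 1.57% on 6 h replicate 2 and 1.77% on untreated replicate 2, and at most 0.00829% on each of the other arrays. These genes were singled out after their values were seen, and the cause was not tested.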
